A study of Mus musculus with 16 samples.

Results

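Long intergenic noncoding RNAs (lincRNAs) are long transcripts from regions between protein coding genes that are not known to code for a protein. In the hippocampus of 16 mice, 1498 of the 80137 transcripts in the deposited expression table are lincRNA transcripts of the set described here, and they belong to 1148 of 18305 genes. They were chosen as all rows whose deposited class is lincRNA, without the Snhg genes and without Malat1, Miat, Meg3, Neat1, Tug1, Rian, Mirg, Gas5 and a few further genes given by name, which removed 51 transcripts of 13 genes. All mice were wild type C57BL/6 animals aged 3 months, with 1 library per mouse from the pooled left and right hippocampus. Homecage (HC) mice received 0 inescapable shocks and 0 escape trials, and control (Ctrl) mice received 0 inescapable shocks and 30 escape trials. The learned helpless (LH) group and the non-learned helpless (NLH) group were both given 180 inescapable foot shocks before the 30 escape trials, and were separated afterwards by how often and how fast they escaped. NLH and LH are therefore outcomes of the same treatment and were not assigned. Each group had 4 mice.

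Some lincRNAs act as RNA molecules, for example as scaffolds or as sites that bind a microRNA, while others are known as the primary transcripts from which microRNAs are cut. A microRNA is a short RNA that pairs with target RNAs mainly through its seed, bases 2 to 8. In brain the class holds the host genes of miR-9 and miR-124, which are abundant in neural cells, and 1700020I14Rik, the mouse gene known as Oip5os1 or Cyrano, which is known for an almost fully complementary site for miR-7. Most lincRNAs are transcribed at a low level and many are restricted to a tissue.

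The microRNAs held by the member genes are shown first, because 3 of the 10 most abundant member genes are their hosts. By the GENCODE vM21 annotation (GRCm38), 22 member genes span a microRNA gene on the same strand. The listed transcripts of such a gene need not hold the microRNA. For example, the 1 listed transcript of Rmst lies outside Mir135a-2. So do 4 of the 6 of Mir670hg for Mir129-2 and 5 of the 9 of Gm3764 for Mir9-1. The sequences below are from RefSeq (GRCm38.p6), with the seed in capitals.
miR-9-5p: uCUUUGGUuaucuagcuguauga
miR-129-5p: cUUUUUGCggucugggcuugc
miR-101a-3p: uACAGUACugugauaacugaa
miR-135a-5p: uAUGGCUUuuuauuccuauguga
miR-155-5p: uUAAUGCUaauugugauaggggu
miR-17-5p: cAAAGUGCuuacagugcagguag

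These 6 microRNAs have different seeds, while single microRNAs have more than 1 host. For miR-9-5p there were 3 host genes among the members, Gm3764 (Mir9-1), C130071C03Rik (Mir9-2) and Mir9-3hg (Mir9-3). For miR-129-5p there were 2, Mir670hg and Gm3294, and for miR-124 there were 2, Mir124a-1hg and Mir124-2hg. The 3 hairpins of miR-9 are printed with the arm that gives miR-9-5p in capitals, and this arm is the same in all of them while the loops and the ends differ.
Mir9-1: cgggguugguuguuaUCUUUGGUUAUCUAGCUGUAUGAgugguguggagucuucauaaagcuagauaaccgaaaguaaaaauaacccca
Mir9-2: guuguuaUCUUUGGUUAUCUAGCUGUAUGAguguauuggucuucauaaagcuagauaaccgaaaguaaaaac
Mir9-3: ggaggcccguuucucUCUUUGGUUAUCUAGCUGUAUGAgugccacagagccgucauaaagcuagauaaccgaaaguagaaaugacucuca

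The hairpins lie at chr3:88215598-88215686, chr13:83738814-83738885 and chr7:79505264-79505353, all on the plus strand. The Mir9-2 hairpin is exonic in 1 transcript of C130071C03Rik, ENSMUST00000131907 (3590 bases, 4 exons), which held 77.6% of the FPKM of its gene. The Mir124a-1 hairpin is exonic in ENSMUST00000180610 (4103 bases, 4 exons), which held 65.6% of the FPKM of Mir124a-1hg. The Mir9-1, Mir9-3 and Mir124a-2 hairpins lie in an intron of, or partly within, 4 transcripts of their host genes each, and in no exon of any listed transcript. The level of a host transcript is that of the long RNA. The mature microRNAs were not measured in these libraries.

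The miR-7 site of 1700020I14Rik was found by a search of the transcript for the complement of miR-7a-5p. It is printed with miR-7a-5p, with the bases that pair with the seed in capitals in the site and the seed in capitals in the microRNA.
miR-7a-5p: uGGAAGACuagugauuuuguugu
site in 1700020I14Rik: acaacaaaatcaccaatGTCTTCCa

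This site covers bases 2935 to 2959 of the long form ENSMUST00000153581 (8300 bases, 3 exons), at chr2:119602137-119602161 on the plus strand, and pairs with 21 of the 23 bases of miR-7a-5p. The short form ENSMUST00000147425 (1381 bases) does not contain it. The long form held 89.4% of the FPKM of the gene and the short form 10.6%.

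Of the 1498 lincRNA transcripts, 1485 were found in GENCODE vM21, where 1333 are still lincRNA, 81 antisense, 34 bidirectional promoter lncRNA and 8 protein coding. Their median length was 1084 bases (198 to 25241), with a median of 3 exons, and 704 have 2 exons. Single-transcript genes were the rule, with 955 genes, and the most transcripts, 12, belonged to Pantr1. The 1145 genes placed in the annotation lie on 19 chromosomes and none on the X chromosome, so X-linked lincRNAs are not analysed here. Although the class is called intergenic, 301 genes overlap a protein coding gene on the opposite strand and 45 on the same strand, and 165 start within 5000 bases of the start of a coding gene transcribed the other way. The median distance to the nearest coding gene was 4714 bases.

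Expression is given as FPKM, a fragment count divided by transcript length and by library depth, which allows levels to be compared between genes of different length. The libraries differed in how many transcripts were listed above 0, and the plot of listed transcripts per mouse shows it. In 14 mice 1002 to 1136 lincRNA transcripts were above 0, while LH3 listed 842 and LH4 listed 651. At a level of at least 0.1 FPKM the 14 mice had 682 to 760 members, LH3 589 and LH4 469, whereas at a level of at least 1 FPKM LH3 and LH4 had the most of all mice, 116 and 126, against 98 to 112. The same 2 mice listed 10846 and 15504 of all 80137 transcripts at 0, against 4872 to 7352. Read counts were not used here. From the spacing of the low values, on an assumed fragment length of 200 bases, the depth was estimated as 20180000 fragments in LH4, 23800000 in LH2, 24720000 in LH3 and up to 38080000 in Ctrl2. A level of 0.1 FPKM of a member of median length was then worth 1.78 to 3.37 fragments, so that values near it rest on few fragments. The part of these library differences in the results for LH was not tested.

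**Figure D1:**
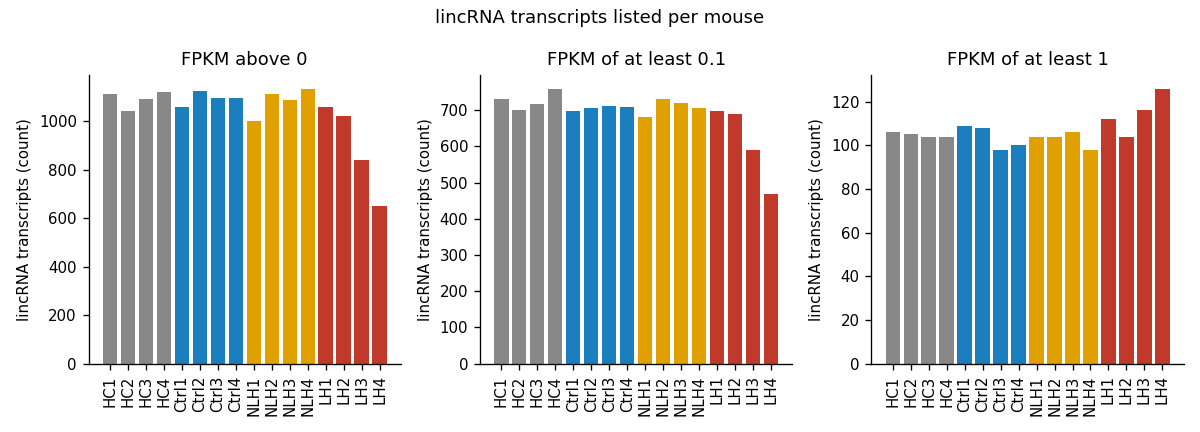
Bars give, for each of the 16 mice (x axis), the number of lincRNA transcripts above 0, at 0.1 FPKM or more and at 1 FPKM or more (y axis of each panel), coloured by group. LH3 and LH4 are the lowest in the first 2 panels, with 842 and 651 transcripts above 0, and the highest in the last, with 116 and 126.

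Markers of hippocampal neurons (Prox1, Wfs1, Fibcd1, Zbtb20, Neurod6, Hpca) were all present, 6 of 6 at a mean of at least 1 FPKM, with a summed level of 293 to 527 FPKM over the mice. Markers of other cells and regions were also present. The 5 choroid plexus markers summed to 2.57 to 91.6 FPKM, with 45.0 ± 39.4 in LH and 29.4 ± 15.2 in Ctrl (SD, n = 4). The 6 striatum markers summed to 7.53 to 18.3, the 4 measured oligodendrocyte markers to 250 to 482 and the 4 measured red blood cell markers to 144 to 459 FPKM. No marker was at 0 in all mice. In such bulk tissue, fewer cells of a type and less RNA per cell cannot be told apart.

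The lincRNA transcripts were listed at low levels. Their median mean level was 0.0937 FPKM, against 0.112 for antisense, 0.135 for processed and 0.309 for protein coding transcripts. A mean of at least 0.1 FPKM was reached by 727 members (48.5%), a mean of at least 1 by 93 (6.21%, against 27.1% of protein coding transcripts) and a mean of at least 10 by 4. Every member reached 0.1 FPKM in some mouse, as did every transcript of the table. Above 0 in all 16 mice were 533 members (35.6%), against 72.2% of protein coding transcripts. The members together made up 0.378 to 0.486% of the summed FPKM of a mouse. This small share was held by few genes: the highest gene had 12.99% of it, the 2 highest 21.1%, the 10 highest 37.2% and the 100 highest 67.3%.

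Gm26723 had the highest mean level, 76.4 FPKM. Its values were 47.0 to 78.4 FPKM in HC and 58.6, 12.7, 59.5 and 85.2 in Ctrl. They were 74.3 to 120 in NLH and 70.1 to 104 in LH. NLH and LH were the higher groups but both overlapped Ctrl, in which Ctrl2 stood far below the other mice. It is 1 of the 301 genes that overlap a coding gene on the opposite strand. Whether the library preparation preserved strand is not given in the sources used here, so for such genes reads of the 2 strands cannot be told apart.

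1700020I14Rik followed with a mean of 47.4 FPKM. It is at chr2:119594297-119607502. Next in order came 6330403K07Rik (21.5 FPKM), Mir124a-1hg (21.1), Pantr1 (14.0), Gm3764 (10.3), Gm10419 (8.34), C330006A16Rik (7.51), Gm26778 (6.30) and C130071C03Rik (6.02). The neighbours 6330403K07Rik and Mir124a-1hg differed by less than the spread of either between mice. Pantr1, which starts 926 bases from Pou3f3, a transcription factor gene of the developing forebrain, had 8.90 to 14.1 FPKM in HC, 10.3 to 13.9 in Ctrl, 13.02 to 20.8 in NLH and 9.16 to 18.6 in LH. C330006A16Rik kept to 6.45 to 8.37 FPKM over all mice, with log2 differences of at most 0.13 in size in any comparison. Gm26778 varied widely in LH, with 4.16, 7.72, 0.656 and 2.28 FPKM. All 3805 bases of its exons lie in exons of Kctd12, which is listed at a mean of no more than 0.07 FPKM in any group. Reads of the 2 genes over these bases cannot be told apart here, since it is not given whether strand was preserved. The level listed for Gm26778 may therefore include reads of Kctd12, which was not tested.

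**Figure D2:**
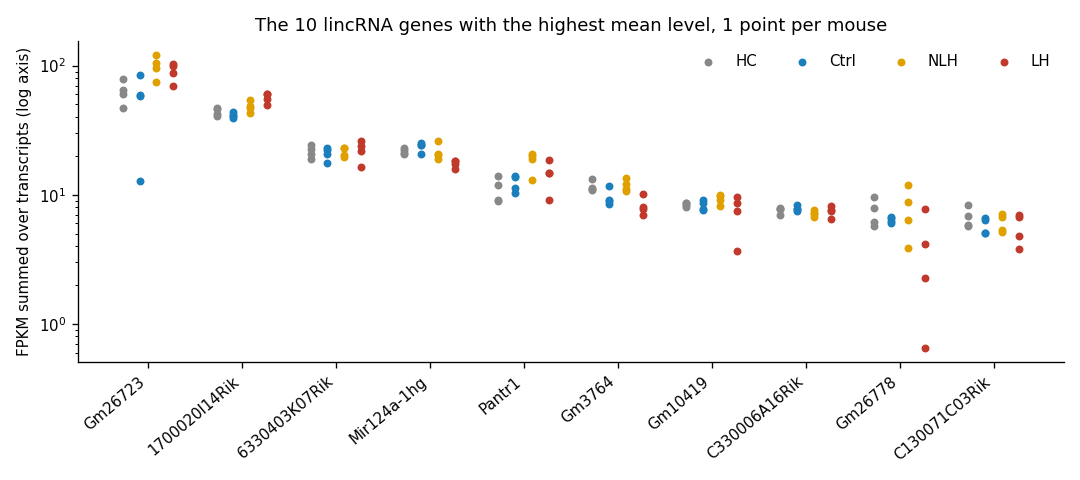
Each point is the FPKM of 1 mouse, summed over the lincRNA transcripts of a gene (y axis, log scale), for the 10 genes with the highest mean (x axis), coloured by group. Gm26723 lies between 12.7 and 120 FPKM, with Ctrl2 far below the rest, and 1700020I14Rik between 39.5 and 60.1.

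The lincRNA transcript with the smallest adjusted p in LH vs. Ctrl was the long form of 1700020I14Rik. The gene had 40.6, 46.6, 46.5 and 42.2 FPKM in HC and 43.8, 39.5, 41.4 and 40.4 in Ctrl. It had 54.0, 46.8, 48.8 and 42.6 in NLH and 60.0, 55.1, 60.1 and 49.9 in LH. Every LH mouse was above every Ctrl and HC mouse, and NLH lay between them and overlapped both Ctrl and LH. On the log2(FPKM + 0.1) scale the gene was 0.44 ± 0.09 (SE) higher in LH than in Ctrl (exact permutation p = 0.0286, the smallest that 4 against 4 mice can give; limma with Benjamini-Hochberg adjustment over all genes, adjusted p = 0.12). NLH was 0.22 ± 0.09 above Ctrl and LH 0.23 ± 0.09 above NLH, with exact permutation p = 0.0571 for both. The long form with the miR-7 site gave 0.43 ± 0.09 in LH vs. Ctrl (limma adjusted p = 0.121) and the short form 0.53 ± 0.19 (limma adjusted p = 0.356).

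Mir124a-1hg, a host of miR-124, went the other way. It had 20.6, 20.95, 22.9 and 22.0 FPKM in HC and 25.03, 20.8, 24.3 and 24.2 in Ctrl. It had 18.9, 20.3, 20.6 and 26.2 in NLH and 18.4, 18.3, 17.3 and 15.97 in LH. In this sum over its transcripts all 4 LH mice were below all 12 other mice, LH1 and LH2 included. The log2 difference was -0.43 ± 0.10 in LH vs. Ctrl (limma adjusted p = 0.139, exact permutation p = 0.0286) and -0.29 ± 0.10 against NLH (limma adjusted p = 0.559, exact permutation p = 0.0286). The form with the hairpin, ENSMUST00000180610, had 12.6, 11.4, 12.0 and 13.5 FPKM in LH. It was below all Ctrl mice but overlapped HC and NLH, with -0.24 ± 0.09 in LH vs. Ctrl (limma adjusted p = 0.335). ENSMUST00000181808, which lies outside the hairpin, differed by -0.90 ± 0.24 (limma adjusted p = 0.197). Mir124-2hg was listed far lower, with 0.402 to 0.658 FPKM in Ctrl, 0.850 to 1.29 in NLH, 0.157 to 0.741 in LH and 0.406 to 1.07 in HC. Its NLH mice were above all Ctrl and all LH mice, by 0.91 ± 0.33 and 1.31 ± 0.33 on the log2 scale.

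The 3 hosts of miR-9 did not show 1 pattern. Gm3764 had 13.2, 11.1, 11.3 and 10.9 FPKM in HC and 9.06, 8.99, 8.47 and 11.7 in Ctrl. It had 12.2, 11.1, 10.7 and 13.6 in NLH and 8.03, 10.2, 7.70 and 7.03 in LH. Its LH mice were below all NLH mice, with a log2 difference of -0.53 ± 0.13 (limma adjusted p = 0.3, exact permutation p = 0.0286), and overlapped Ctrl. C130071C03Rik had means of 6.68, 5.79, 6.07 and 5.54 FPKM in HC, Ctrl, NLH and LH, and Mir9-3hg had 4.33, 3.86, 4.50 and 3.65. Both overlapped in all 4 comparisons.

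Over all 22 genes that span a microRNA gene, 6 had a higher fitted level in LH than in Ctrl and 4 a higher one than in NLH. Their median log2 differences were -0.25 and -0.25, against -0.11 and -0.10 over all 1148 member genes and 0.00 and -0.06 over all 18305 genes. In Ctrl vs. HC and in NLH vs. Ctrl 13 of the 22 were higher in the first group, with medians of 0.01 and 0.06. None of the 66 host transcripts passed the adjusted limma threshold. Of the entries, 3 share 1 span on chromosome 7 that holds the Mir344 genes, so the 22 are not 22 loci. Among lowly listed hosts were Mir17hg, Mir155hg and Gm3294, at means of 0.125, 0.121 and 0.294 FPKM. Mir142hg, whose microRNA is known from blood cells, was above 0 in NLH4 and LH1 alone, at 2.00 and 1.64 FPKM.

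**Figure D3:**
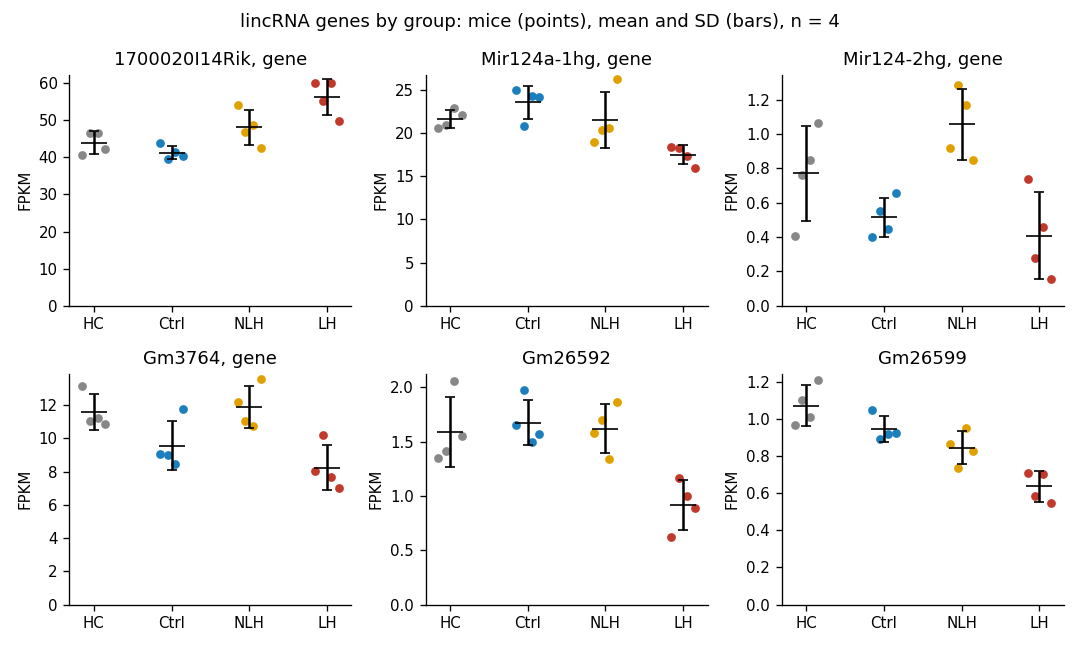
Points are the FPKM of single mice (y axis, from 0) by group (x axis) for 6 lincRNA genes, with the mean and the SD (n = 4) as bars. LH is the highest group for 1700020I14Rik (49.9 to 60.1 FPKM) and the lowest for Mir124a-1hg (15.97 to 18.4), Gm26592 (0.620 to 1.16) and Gm26599 (0.545 to 0.707).

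The first comparison, Ctrl vs. HC, asks what handling, the shuttle box and the escape trials change together, since HC mice stayed in their cages and were not handled. The test of the study, which compares mean FPKM of the groups with equal variances, two-sided and at an unadjusted p under 0.05, called 73 of 1428 lincRNA transcripts (5.11%), against 6.68% of all transcripts. Of these, 37 were higher and 36 lower in Ctrl, against 3.85% and 2.83% of all transcripts. All 4 Ctrl mice were above all 4 HC mice for 18 members (2.56% of all transcripts) and below them for 30 (1.96%). With limma, 0 members passed the adjusted p of 0.05 (0.00374% of all transcripts) and 38 (2.54%) had an unadjusted p under 0.05, against 3.45% of all transcripts. Summed over genes, 0 member genes passed (0% of all genes) and 30 of 1148 (2.61%) had an unadjusted limma p under 0.05, against 2.69% of all genes. With median-ratio size factors the study test called 35 higher and 39 lower members, against 3.47% and 3.24% of all transcripts. Without HC2 it called 21 higher and 47 lower (3.02% and 2.76% of all transcripts), and without HC3 23 and 46 (2.90% and 2.93%). Without any 1 Ctrl mouse more members were higher, as with 37 and 29 without Ctrl1 (4.12% and 2.26%). RP24-163K4.1 ENSMUST00000210438 had 0.498 to 0.793 FPKM in HC and 0.353 to 0.448 in Ctrl, without overlap, a log2 difference of -0.55 ± 0.22 (limma adjusted p = 1). 2810429I04Rik ENSMUST00000190547 had 0.607, 0.770, 0.264 and 0.445 FPKM in HC and no more than 0.180 in Ctrl, a log2 difference of -1.55 ± 0.45 (limma adjusted p = 1). Summed over its 11 transcripts, this gene had 0.689 to 1.38 FPKM in HC and 0.554 to 0.986 in Ctrl, which overlapped.

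The comparison of NLH with Ctrl sets inescapable shock without helplessness against the trials alone. The study test called 78 of 1430 members (5.45%), against 7.2% of all transcripts, 43 of them higher in NLH (4.1% of all) and 35 lower (3.1%). The groups did not overlap for 23 members that were higher (2.91% of all) and for 23 that were lower (2.16%). By limma 0 members passed the adjusted threshold (0.0125% of all) and 65 (4.34%) had an unadjusted p under 0.05, against 5.12% of all transcripts. Of the gene sums 0 passed (0.00546% of all genes) and 53 (4.62%) had an unadjusted p under 0.05, against 5.58% of all genes. With median-ratio size factors the split of the study test turned, with 34 members higher and 40 lower, against 3.86% and 3.65% of all transcripts. It also turned without Ctrl1, to 24 and 39 (2.67% and 2.94% of all transcripts). Without Ctrl3 it was 25 and 34 (3.02% and 2.73%) and without Ctrl4 27 and 28 (3.00% and 2.71%). Without Ctrl2 it was 29 and 26 (3.17% and 2.73%), and without any 1 NLH mouse more members were higher than lower. The same transcript of 2810429I04Rik had 0.765, 0.643, 0.193 and 0.240 FPKM in NLH, above all Ctrl mice, with a log2 difference of 1.32 ± 0.45 (limma adjusted p = 0.752). Gm12434 was lower, with 0.0938, 0.483, 0.240 and 0.301 FPKM in Ctrl, 0 in 3 NLH mice and 0.0817 in NLH3 (-1.60 ± 0.43, limma adjusted p = 0.468, with -3.85 when 0.01 was added and -0.32 when 1 was added), and it was listed at 0 in all 4 LH mice. Dancr, a lincRNA known from the maintenance of undifferentiated cells, had 2.01, 1.83, 1.11 and 1.43 FPKM in Ctrl and 0.865, 0.781, 1.00 and 0.822 in NLH, which did not overlap (-0.78 ± 0.35, limma adjusted p = 0.851).

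The comparison of LH with Ctrl, in which both differ in shocks and in the outcome, gave more lower than higher calls over all members. At a mean of at least 1 FPKM this did not hold. There the study test called 8 of 93 members higher and 7 lower, against 6.95% and 5.17% of all transcripts at that level. The study test called 87 of 1394 (6.24%), against 7.69% of all transcripts, 21 of them higher in LH (2.89% of all) and 66 lower (4.81%). Without LH3 and LH4, an alternative added after the values were seen, 99 members were called (7.16%), against 13.7% of all transcripts. The split turned to 58 higher (4.20%) and 41 lower (2.97%), and over all transcripts to 9.72% and 3.99%. Without LH3 alone it was 24 higher and 52 lower, against 3.42% and 3.86% of all transcripts. Without LH4 alone it was 27 and 45, against 5.71% and 4.41%. With median-ratio size factors it was 14 and 71, against 2.82% and 5.28%. With 1 Ctrl mouse left out it was 9 and 60 (Ctrl1), 13 and 56 (Ctrl2), 12 and 53 (Ctrl3) or 14 and 51 (Ctrl4). Over all transcripts these shares were 1.83 to 2.02% and 3.80 to 3.98%. The groups did not overlap for 11 members that were higher (2.37% of all) and for 39 that were lower (3.57%). With limma 0 members passed the adjusted threshold (0.0462% of all) and 121 (8.08%) had an unadjusted p under 0.05, against 10.7% of all transcripts. Of the gene sums 0 passed (0% of all genes) and 121 (10.5%) had an unadjusted p under 0.05, against 11.5% of all genes. Over the 727 members at a mean of at least 0.1 FPKM the median log2 difference was -0.17, against -0.10 over all transcripts at that level, and the medians of the single mice had an SD of 0.144. It was -0.08 at a mean of at least 1 FPKM, against -0.03 over all transcripts, and without LH4 it was -0.08 at the lower limit, against -8.5e-05. With 0.01 added in place of 0.1 it was -0.37, against -0.17 over all transcripts, and with 1 added -0.03, against -0.02.

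The comparison of LH with NLH, which received the same shocks, had the same direction of most calls. The study test called 66 of 1395 members (4.73%), against 4.47% of all transcripts, 12 of them higher in LH (1.27% of all) and 54 lower (3.2%). Without LH3 and LH4 it called 78 members (5.66%), against 6.39% of all transcripts, and the split turned to 51 higher and 27 lower, against 4.42% and 1.97%. Without LH3 the split was 13 and 36, against 1.57% and 2.27% of all transcripts, and without LH4 15 and 45, against 2.27% and 2.47%. With median-ratio size factors it was 8 and 55, against 1.22% and 3.47%. With 1 NLH mouse left out it was 9 and 57 (NLH1), 5 and 46 (NLH2), 9 and 43 (NLH3) or 4 and 49 (NLH4). Over all transcripts these shares were 0.717 to 1.76% and 2.37 to 3.71%. Among the 93 members at a mean of at least 1 FPKM it was 4 and 5, against 2.09% and 2.54% of all transcripts at that level. The groups did not overlap for 6 members that were higher (0.947% of all) and for 36 that were lower (2.28%). With limma 0 members passed the adjusted threshold (0.0412% of all) and 117 (7.81%) had an unadjusted p under 0.05, against 8.72% of all transcripts. Of the gene sums 0 passed (0.0109% of all genes) and 109 (9.49%) had an unadjusted p under 0.05, against 7.53% of all genes. The median log2 difference was -0.16 against -0.10 over all transcripts, with an SD of 0.147 between mice. It was -0.08 at a mean of at least 1 FPKM, against -0.06 over all transcripts, and without LH4 it was -0.09 at the lower limit, against -0.01. With 0.01 added it was -0.34, against -0.16, and with 1 added -0.03, against -0.03. The limma F test over the 4 groups placed 0 members past the adjusted threshold (0.0948% of all) and 76 (5.07%) at an unadjusted p under 0.05, against 8.79% of all transcripts. Both LH comparisons share the LH mice, so their counts are not independent.

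**Figure D4:**
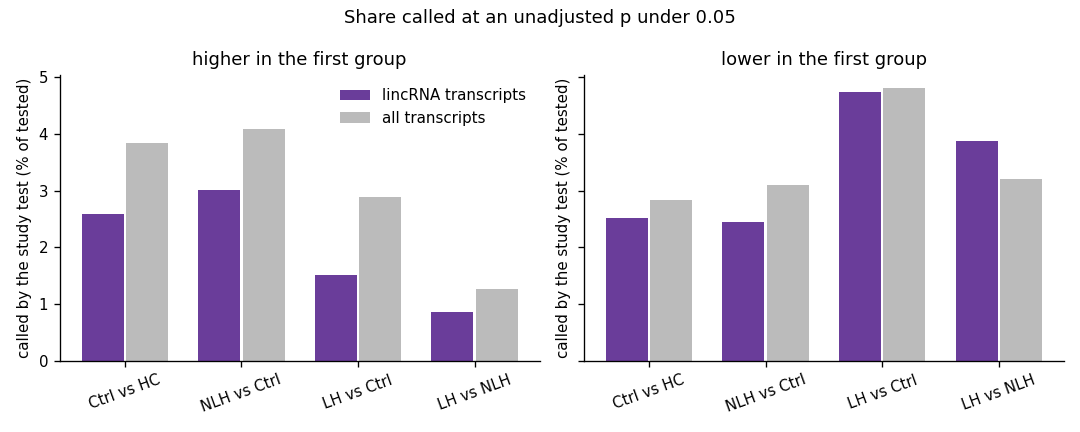
Bars give the percentage of tested transcripts called by the study test (y axis, unadjusted p under 0.05) in each comparison (x axis), for lincRNA transcripts and for all transcripts, with calls higher in the first group on the left and lower on the right. For lincRNA transcripts the lower calls of the LH comparisons (66 against Ctrl, 54 against NLH) exceed the higher ones (21 and 12), as for all transcripts (4.81% and 3.2% lower, 2.89% and 1.27% higher), and without LH3 and LH4 both splits turn.

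Gm26592 was among the members with the smallest limma p in both LH comparisons. It had 1.35, 1.41, 2.05 and 1.55 FPKM in HC and 1.66, 1.97, 1.501 and 1.57 in Ctrl. It had 1.58, 1.70, 1.34 and 1.86 in NLH and 0.620, 1.16, 0.997 and 0.888 in LH. Each LH mouse was below all 12 other mice. The log2 difference was -0.83 ± 0.19 against Ctrl and -0.78 ± 0.19 against NLH (transcript fit by limma, adjusted p = 0.142 and 0.238). Gm26592 (chr9:21034290-21037782, minus strand) lies within the span of Icam5, a neuronal cell adhesion gene on the other strand, and 791 of its 1730 bases (45.7%) fall in Icam5 exons. Icam5 itself was at 15.1 ± 2.15 FPKM in Ctrl and 16.3 ± 6.22 in LH, a log2 difference of 0.03 ± 0.22 (SE; limma adjusted p = 0.987).

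Gm26599 (chr7:108950754-108961535, minus strand) had 0.892 to 1.05 FPKM in Ctrl, 0.737 to 0.951 in NLH and 0.545 to 0.707 in LH. LH did not overlap the other groups, with log2 differences of -0.51 ± 0.16 against Ctrl and -0.36 ± 0.16 against NLH (limma adjusted p = 0.229 and 0.639). Of its 3189 bases 1056 (33.1%) lie in exons of Tub on the other strand. Tub had log2 differences of -0.42 and -0.41 (SE 0.13) in the same comparisons, and without strand the reads of gene and partner cannot be told apart. 1700109K24Rik, in an intron of the splicing regulator gene Rbfox2 with 0 bases in its exons, had 1.47 to 2.93 FPKM in HC, 1.34 to 2.26 in Ctrl, 2.24 to 2.51 in NLH and 1.19 to 1.77 in LH. LH was below all NLH mice but overlapped HC and Ctrl, with log2 differences of -0.66 ± 0.20 against NLH and -0.23 ± 0.20 against Ctrl (limma adjusted p = 0.469 and 0.706). Rbfox2 differed by 0.01 ± 0.13 between LH and NLH.

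Several of the transcripts with a small limma p were at or near 0 in all LH mice and low elsewhere. 2810429I04Rik ENSMUST00000190547, the member with the smallest adjusted p in LH vs. NLH and in the F test (limma adjusted p = 0.137 and 0.0958), was at 0.0428 FPKM in LH2 and below 0.01 in the others. ENSMUST00000125960 of 5330416C01Rik had 0.118 to 0.405 FPKM in NLH, Gm15627 0.163 to 1.23 and ENSMUST00000183087 of Bvht, a gene known from heart development, 0.205 to 0.498, and none of these transcripts reached 0.01 FPKM in any LH mouse. As sums over all their transcripts the genes were not all near 0 in LH, with 0.314 to 1.08 FPKM for 2810429I04Rik, 0.108 to 0.609 for 5330416C01Rik and up to 0.628 for Bvht. The log2 differences of these low transcripts depend on the added constant, as for 2810429I04Rik in LH vs. NLH with -2.20, but -4.72 with 0.01 added and -0.51 with 1 added. These 4 transcripts are 437 to 747 bases long, shorter than the median member, so each value stands for few fragments by the estimate above. In all, 272 members were at 0 in all 4 LH mice (18.2%), against 166 to 173 in the other groups, and for all transcripts these shares were 3.78% in LH and 2.29 to 2.40% elsewhere. Of members at 0 in all 4 mice of a group and at 0.1 FPKM or more in 6 or more of the other 12, there were 10 in LH, 1 in NLH, 1 in Ctrl and 0 in HC. Over all 80137 transcripts these numbers were 210, 28, 13 and 20.

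Some of the named genes were higher in LH. Gm28271 had 0 to 2.43 FPKM in HC, 0.716 to 1.54 in Ctrl, 1.40 to 4.15 in NLH and 3.63 to 6.13 in LH, and LH was above all Ctrl mice (1.82 ± 0.70 on the log2 scale, limma adjusted p = 0.329) but overlapped NLH. RP24-122D14.3 had 0.542 to 0.882 FPKM in Ctrl, 0.583 to 0.980 in NLH and 0.995 to 1.25 in LH, without overlap, and was 0.64 ± 0.21 and 0.52 ± 0.21 higher on the log2 scale (limma adjusted p = 0.253 and 0.597). Both are nodes of the co-expression network of the study, as are Gm26592, Gm26599, 1700109K24Rik and Mir124-2hg. In all, 16 of the 56 lncRNA names of that network were members, and of their 31 transcripts 9 were called lower and 2 higher in each LH comparison. Over all transcripts 4.81% were called lower and 2.89% higher against Ctrl, and 3.2% and 1.27% against NLH. The network was chosen by the study on these samples, so these counts are not independent evidence of a direction.

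Some transcripts were listed near 0 in single mice. Of the 93 members with a mean of at least 1 FPKM, 17 (18.3%) were below 0.01 FPKM in some mouse, against 18.2% of protein coding transcripts. In 1300002E11Rik, chosen after its values were seen, ENSMUST00000209449 (580 bases) and ENSMUST00000181960 (574 bases) share 560 bases. In each of the 16 mice 1 of them was below 0.01 FPKM and the other at 0.5 or more, limits that were also set after the values were seen. The first was the listed form in HC2, HC3, HC4, Ctrl1, Ctrl3 and Ctrl4, and the second in all NLH and LH mice, HC1 and Ctrl2. For ENSMUST00000209449 alone this gave log2 differences of -3.52 ± 1.04 in NLH vs. Ctrl and -3.51 ± 1.04 in LH vs. Ctrl (limma adjusted p = 0.57 and 0.25). The sum of both was 2.04 ± 0.447, 2.52 ± 0.441, 1.63 ± 0.726 and 2.15 ± 0.794 FPKM in HC, Ctrl, NLH and LH (SD, n = 4). The groups overlapped in the sum, and for the single form as well, since Ctrl2 was at 0.00204 FPKM. 9530082P21Rik showed a similar break as a gene, with no more than 0.0729 FPKM in HC1, Ctrl2, LH3 and LH4 and 3.32 to 9.98 in the other 12 mice.

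**Figure D5:**
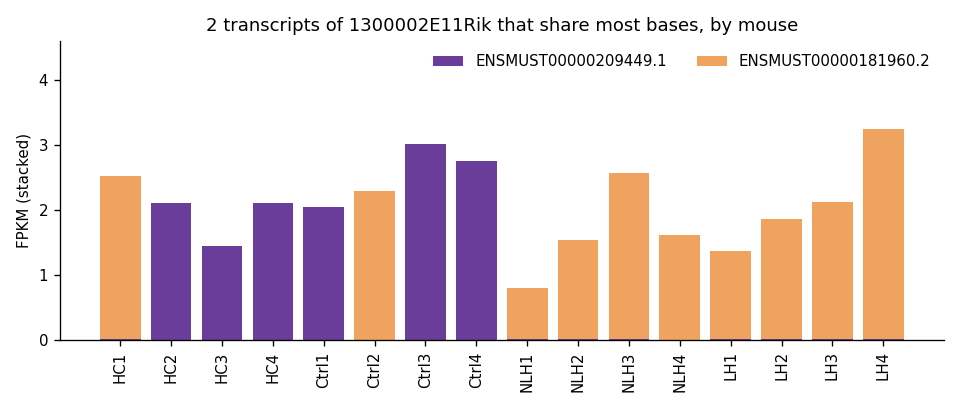
Stacked bars give the FPKM (y axis) of 2 transcripts of 1300002E11Rik in each mouse (x axis), which share 560 bases. In every mouse 1 of them makes up the bar, and the sum ranges from 0.800 to 3.24 FPKM.

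Lists of genes by role held few members. Of the 11 genes listed as microRNA hosts by name 5 were members and are described above, and of the X inactivation and X-linked genes none was. Of the list for neural development and neuronal function 5 of 18 genes were members, Pantr1, 1700020I14Rik, Rmst, Lhx1os and Otx2os1. Of their 27 transcripts the study test called 0 in Ctrl vs. HC, 2 higher in NLH vs. Ctrl (4.1% of all transcripts), 2 higher in LH vs. Ctrl (2.89%) and 1 lower in LH vs. NLH (3.2%). Rmst, known from neuronal differentiation, had means of 3.09, 3.69, 3.83 and 3.00 FPKM in HC, Ctrl, NLH and LH. Of the list for growth, genome stability and p53 6 of 12 were members, and of their 20 transcripts it called 0, 1 higher, 1 higher and 2 lower, and 1 higher in the same order. For all transcripts the shares in these directions were 4.1% in NLH vs. Ctrl, 2.89% and 4.81% for LH against Ctrl, and 1.27% for LH against NLH. Pvt1, a neighbour of Myc, and Lncpint, a target of p53, had means of 3.08 to 3.84 and 3.73 to 4.68 FPKM and overlapped in all comparisons. Epb41l4aos had 4.29 to 7.00 FPKM in HC and 2.18 to 4.02 in Ctrl, without overlap (-0.67 ± 0.46, limma adjusted p = 1). Of the 10 imprinted genes 2 were members, H19 and B830012L14Rik, with no call by the study test. H19 was at a mean of 0.0234 FPKM and B830012L14Rik at 0.895. No member of these lists passed the adjusted limma threshold in any comparison.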

How the data were processed

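Total RNA libraries of the hippocampus, 1 per mouse, were sequenced by the authors, and the deposited values are FPKM per transcript, not scaled between mice. Reads were aligned to mm10 with HISAT2 in the methods of the study, while the processing notes of the submitters name STAR 2.42a. Transcripts were assembled and merged with StringTie 1.2.3 and quantified with Cufflinks. Multi-transcript genes depend on how these tools divide reads.

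Members and gene lists were chosen with earlier results of these data known. Student tests with equal variances were run on FPKM of all transcripts with any variance in the comparison. A model with 4 group means over the 16 mice was fitted by limma 3.58.1 (R 4.3.3), with trend and robust moderation, to log2(FPKM + 0.1), with Benjamini-Hochberg adjustment over 80137 transcripts, and to sums over 18305 genes. Adding 0.1 understates changes of low transcripts. Exact permutation tests used all 70 splits. Named genes were the 10 highest by mean FPKM, the 5 transcripts (mean at least 0.1) of smallest limma p in each comparison and in the F test, the listed members by role, members of the network of the study, and microRNA hosts. Positions came from GENCODE vM21. Scripts were tested on simulated data. Python 3.11.15, pandas 2.3.3, numpy 2.4.6, scipy 1.17.1 and matplotlib 3.10.9 were used. P-values set a difference between groups against the spread between mice. Limma uses 1 estimate of that spread for the 4 groups, moderated over transcripts. At a mean of at least 1 FPKM the median SD of members on the log2 scale was 0.211, 0.201, 0.248 and 0.390 in HC, Ctrl, NLH and LH. For protein coding transcripts it was 0.206, 0.193, 0.259 and 0.471. The overlap of 1 member with a coding gene is not reported here.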

Additional observations from a re-analysis of the deposited data

Results flagged for a closer look

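Single mice stood apart from the other 3 of their group by Dixon's test in 10 of 103 groups of 4 tested. A chance rate of about 1 in 20 holds for normal values only. Where 3 mice are at or near 0, a higher value in the remaining mouse is flagged by construction, so that rate is no reference here. Gm3764 had 13.2 FPKM in HC1, above 10.9 to 11.3 in the other HC mice. The other values are of single transcripts and low: 0.0428 FPKM for ENSMUST00000190547 of 2810429I04Rik in LH2, 0.187 for ENSMUST00000146336 of A330102I10Rik in HC2, 0.0817 for the transcript of Gm12434 in NLH3, 0.171 for that of Gm10010 in NLH3 and 0.124 in LH1, and 0.410 for ENSMUST00000154820 of Mkln1os in LH2, each against values near 0 of that transcript in the rest of the group. Summed over their transcripts, 2810429I04Rik had 0.314 to 1.08 FPKM and Mkln1os 1.96 to 3.404 in LH. ENSMUST00000142879 of A630023P12Rik had 0.299 FPKM in HC1, against 0.123 to 0.132, and 0.0852 in Ctrl3, against 0. Gm15627 was at 0 in HC3, against 0.186 to 0.199.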

How the results depend on the processing

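The 5 transcripts of smallest limma p in each comparison were refitted for their own comparison, and other named genes were not. Of these values 258 kept direction and side of the threshold, and 2 kept direction and passed the adjusted limma threshold, 1700020I14Rik without LH4 (0.50) and Mkln1os without LH2 (-2.57), both in LH vs. Ctrl. The added constant moved most of the 20 differences by over 1.5 times, 14 with 0.01 added and 18 with 1 added. The omission of LH3 and LH4 together was not among these refits. In the order Ctrl vs. HC, NLH vs. Ctrl, LH vs. Ctrl and LH vs. NLH, the study test called 9, 13, 15 and 9 members with a mean FPKM of at least 1 (of 93 in each, 9.68, 14.0, 16.1 and 9.68%, against 11.3, 12.7, 12.1 and 4.63% of all transcripts at that level). Over all tested members 48, 46, 50 and 42 did not overlap between groups (3.36, 3.22, 3.59 and 3.01%, against 4.52, 5.07, 5.94 and 3.23% of all transcripts). Unequal variances left 55, 55, 61 and 43 calls (3.85, 3.85, 4.38 and 3.08%, against 5.21, 5.50, 5.70 and 3.19%). With each mouse left out in turn the study test called 56 to 70, 55 to 78, 65 to 96 and 49 to 71 members (3.95 to 5.01, 3.89 to 5.50, 4.74 to 6.97 and 3.54 to 5.14%, against 5.49 to 6.40, 5.62 to 8.48, 5.77 to 10.1 and 3.18 to 5.46% of all transcripts), and limma 0 in Ctrl vs. HC and 0 to 1 in the other comparisons and in the F test, with 1 call without LH2, LH4 or Ctrl4. In those fits with 1 member, limma called 17 of all transcripts in NLH vs. Ctrl (without Ctrl4), 310, 67 and 22 in LH vs. Ctrl (without LH2, LH4 and Ctrl4), 151 in LH vs. NLH (without LH2), and 65 and 241 by the F test (without Ctrl4 and LH2). Over all fits with 1 mouse left out it called 0 to 13, 8 to 47, 12 to 310 and 16 to 242 of the 80137 transcripts in the 4 comparisons. By the F test it called 44 to 241. The exclusion of the study left 66 and 52 calls in the LH comparisons, of 4247 and 2723 over all transcripts (5.26 and 4.13% of the members not excluded, 6.15 and 3.95% of all). The median log2 difference of Ctrl vs. HC was 0.0097 at a mean of at least 1, and the medians of LH against Ctrl and against NLH were -0.37 and -0.34 with 0.01 added and -0.03 and -0.03 with 1 added. Except where the construction shows it (fewer transcripts tested, fewer mice), the cause was not tested. On the assumed fragment length, values below 0.1 FPKM stand for few fragments.

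Same-numbered mice did not deviate together (24 pairs, median r -0.0084, from -0.057 to 0.087). The labels do not say whether equal numbers mark a shared cage or day, and these correlations cannot decide it. With the replicate number as a block the study test called 57, 46, 63 and 47 members (3.99, 3.22, 4.52 and 3.37%, against 5.08, 5.86, 5.29 and 3.68% of all transcripts), and limma 0 in all comparisons and in the F test, where it called 0, 0, 5, 28 and 17 of all transcripts.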
